A study of Homo sapiens with 4 samples.

Results

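The genes described are 7 genes of cholesterol synthesis and its control, HMGCS1, FDFT1, SQLE, LSS, DHCR7, SREBF2 and INSIG1, out of 17217 named genes on an expression array of HEK293 cells. They were taken by name and found through the RefSeq accession that each probe name carries, a rule that uses no measured value. The set had been put forward as genes of cholesterol synthesis and uptake, but it holds 5 synthesis enzymes and 2 regulators and no receptor for lipoproteins. HEK293 is an immortalised line derived from human embryonic kidney, transformed with adenovirus DNA and in wide use as a host for transfected receptors. The 4 arrays are biological replicates of a single group, untreated cells kept in DMEM with foetal bovine serum, penicillin and streptomycin. Per the methods of the study, each array received RNA extracted separately from its own confluent plate. With 1 group there was no comparison between conditions, and the question the arrays address is which messages the cells hold above an internal baseline.

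Cholesterol is built from acetyl-CoA. HMG-CoA synthase acts early on the way to mevalonate, a chain of kinases and prenyl transferases leads on to farnesyl diphosphate, squalene synthase and squalene epoxidase commit the chain to sterols, lanosterol synthase closes the rings, and a last series of enzymes trims lanosterol to cholesterol. The genes of the pathway are switched by SREBP-2, a transcription factor made as a membrane protein of the endoplasmic reticulum. When sterols are scarce its escort SCAP carries it to the Golgi, where the site-1 and site-2 proteases release the active part. When sterols are plentiful INSIG proteins hold SCAP back in the endoplasmic reticulum. The promoters of its targets typically carry a sterol regulatory element, and SREBPs act there together with NF-Y, which binds CCAAT boxes, and Sp1, which binds GC boxes.

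Promoters of the genes were read for these elements and are printed in part for the members that the RefSeq promoter table of build GRCh38.p14 holds. These are 5 genes with 7 promoters, and FDFT1 and SQLE were not among them. Each promoter was searched on both strands, over the 250 bases before the start, for TCACNCCAC, a form of the sterol regulatory element, for CCAAT and for GGGCGG. The stretches below are 125 bases each, read 5′ to 3′ on the strand of the gene, with capitals marking TCACNCCAC and CCAAT, the latter as ATTGG where the match lies on the opposite strand.

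SREBF2 (chr22:41832939-41833063, plus strand): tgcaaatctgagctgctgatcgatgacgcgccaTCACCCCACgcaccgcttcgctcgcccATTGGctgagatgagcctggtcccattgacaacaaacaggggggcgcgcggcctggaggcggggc
INSIG1 (chr7:155297648-155297772, plus strand): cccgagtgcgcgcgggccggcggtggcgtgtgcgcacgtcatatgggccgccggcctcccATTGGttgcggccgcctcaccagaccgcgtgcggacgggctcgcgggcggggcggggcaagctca
HMGCS1 (chr5:43313503-43313627, minus strand): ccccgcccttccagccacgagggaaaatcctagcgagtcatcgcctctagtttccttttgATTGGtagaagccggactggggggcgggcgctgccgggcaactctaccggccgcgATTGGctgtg
LSS (chr21:46228860-46228984, minus strand): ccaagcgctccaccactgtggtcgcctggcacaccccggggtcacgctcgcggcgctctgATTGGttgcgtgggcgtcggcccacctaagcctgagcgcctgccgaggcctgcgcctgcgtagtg
DHCR7 (chr11:71448423-71448547, minus strand): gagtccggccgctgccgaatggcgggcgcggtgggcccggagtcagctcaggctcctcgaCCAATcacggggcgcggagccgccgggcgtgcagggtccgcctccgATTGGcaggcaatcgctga

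A CCAAT box stood in a promoter of all 5 genes and in 5 of their 7 promoters, while 32.0% of the 35116 promoters in the table held one. In SREBF2 the sterol regulatory letters began 133 bases before the start, and an inverted CCAAT box began 106 bases before it. HMGCS1 had inverted CCAAT boxes 155 and 100 bases before the start. INSIG1 had an inverted one at 170 bases and LSS at 150 bases, and DHCR7 had a forward one at 94 bases and an inverted one at 48 bases. The start used for DHCR7, at base 71448393, lies inside the annotated gene, which reaches to base 71449043. SREBF2 was the only one of the 5 genes with TCACNCCAC, which 0.883% of all promoters held. GGGCGG occurred in a promoter of each of the 5 genes and in 6 of their 7 promoters, against 42.6% of all promoters. In LSS there were 5 copies between 75 and 33 bases before the start and an inverted one further upstream. Matches for the 3 motifs overlapped nowhere in these promoters, except that neighbouring GGGCGG copies in INSIG1 shared a base. Among the other enzymes of the pathway, 10 of the 13 genes with a promoter held CCAAT, 11 held GGGCGG and 0 held TCACNCCAC. CCAAT was present in 4 of 9 genes of sterol uptake, in 2 of 8 genes that regulate SREBPs and in 3 of 11 sterol genes of liver, gut and steroid organs. Counted by promoter, as the share of 32.0% is, CCAAT was in 12 of 16 for the other enzymes and 5 of 12 for uptake. For SREBP regulation it was in 2 of 13 promoters, and for liver, gut and steroid organs in 6 of 18. By promoter, GGGCGG was in 14 of 16 for the other enzymes and 11 of 12 for uptake. It was in 6 of 13 for SREBP regulation and 4 of 18 for liver, gut and steroid organs. A match of letters is a description of these windows and not a measured binding site.

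On the arrays, all 7 genes gave signals above the internal baseline on every one of the 4 arrays. This baseline follows the rule of the study and is the mean plus 2 SD of control genes for seminal proteins on the same array. In the study the control mean alone stood for zero expression, and the baseline was the threshold for significant expression. A signal below the baseline therefore does not show that a message is absent. A distance is the log2 level of a gene minus the baseline of its array, and a gene counts as detected where its mean distance is above 0. By this rule 7 of 7 genes were detected, against 52.7% of all named genes. All 7 lay above the baseline on all 4 arrays, as did 45.0% of all named genes. A one-sided limma test of the distances against 0 called all 7, against 45.9% of all named genes. The median distance of the 7 genes was 3.71 log2 units, and that of all named genes was 0.26. Each probe has its own affinity, so these distances tell how far a signal lies from the baseline and do not rank transcripts by copy number. In RNA from a whole culture, more message per cell and more cells with the message cannot be told apart.

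**Figure D1:**
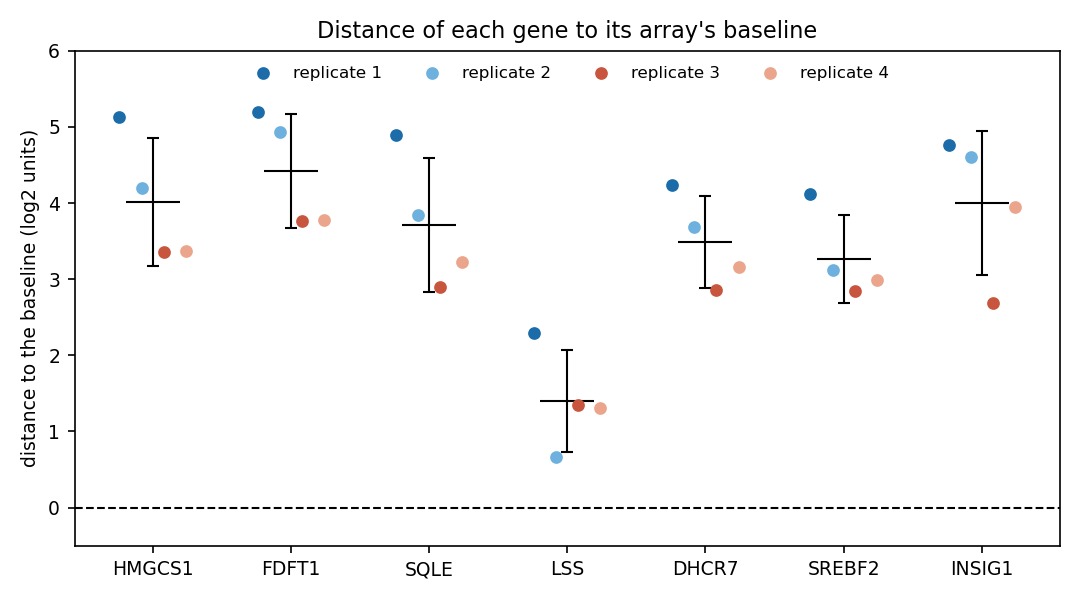
Distance to the array's baseline in log2 units for the 7 genes, with 1 point per array, a bar at the mean and whiskers of 1 SD over the 4 arrays, and the baseline as a dashed line. All points lie above the line, LSS is nearest to it at 0.67 on replicate 2, and replicate 1 gives the highest point of every gene.

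The baseline itself differed between arrays and enters every distance. Replicates 1 to 4 had baselines of 9.47, 9.94, 10.69 and 10.32 log2 units. Replicate 1 therefore gave 58.1% of named genes above the baseline and replicate 3 gave 47.4%. Of the 10 matched control genes, SPATA5 and SPATA13 had mean levels of 9.97 and 9.72, while the others lay between 6.53 and 7.25. Without SPATA5 and SPATA13 the mean baseline was 7.78 in place of 10.10, and 74.0% of named genes had a mean above it in place of 52.7%. The values of replicates 1 and 2 shared 1 distribution and those of replicates 3 and 4 another: sorted values agreed within 0.01 log2 units at 99.97% and 99.99% of ranks within these pairs and at 1.23% to 1.25% of ranks between them. The table thus has the form that normalization in separate pairs gives. Levels, which are log2 values before the baseline is taken off, are given beside the distances for this reason. The labelled cell line was set against marker genes. Of 7 embryonic kidney transcription factors 4 had a mean above the baseline, or 57.1%, near the share of all named genes. Limma called 2, SALL1 at 1.90 and WT1 at 0.81, while PAX2 and PAX8 lay below the baseline on all 4 arrays. WT1 had an SD of 1.03 log2 units over the arrays and was below the baseline on replicate 3, at -0.64. Of 10 markers of mature tubule and glomerulus 2 were detected and called, LRP2 and PODXL. Of 9 fibroblast and blood markers 2 were detected, CD68, a lysosomal protein of macrophages, at 1.67 and called, and COL1A1 at 0.37 and not called, and 6 lay below the baseline on all 4 arrays, PTPRC among them. Of 8 hepatocyte markers limma called 0, and 0 also had an unadjusted p under 0.05. ALB had a mean distance of -3.15, and only CPS1 had a mean above 0, at 0.23 ± 0.37 log2 units (SD, n = 4 arrays). All 16 widely used reference genes were called, with a median distance of 4.23.

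HMGCS1 encodes the cytosolic HMG-CoA synthase, an early enzyme on the way to mevalonate. Its distances were 5.13, 4.19, 3.36 and 3.37 on replicates 1 to 4, a mean of 4.01 ± 0.84 log2 units (SD, n = 4). Replicate 1 was the highest, and replicates 3 and 4 could hardly be separated. Its levels were 14.60, 14.13, 14.05 and 13.69, so that the SD of the level, 0.37, was below that of the distance. Between 89.5% and 95.6% of named genes had a lower level on the same array. The 3 probes gave mean levels between 14.01 and 14.20, the closest set among the 7 genes, and all 3 were highest on replicate 1.

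FDFT1 encodes squalene synthase, which joins farnesyl diphosphate units into squalene. It had the largest mean distance of the 7 genes, 4.42 ± 0.75 log2 units (SD, n = 4), with 5.19, 4.93, 3.77 and 3.78 on replicates 1 to 4. Replicates 1 and 2 lay above replicates 3 and 4, as they did for every other member except LSS. The baseline, which enters these distances, was lower on replicates 1 and 2. The levels themselves were 14.66, 14.87, 14.46 and 14.10. Between 93.2% and 97.1% of named genes were lower on the same array. The gene's signal came from 2 of its 3 probes, which averaged 14.94 and 15.19, whereas the remaining one averaged 10.41 and passed the baseline on 2 of 4 arrays. These 3 probes spanned 4.77 log2 units, the widest span among the 7 genes. With the mean of log2 probe values in place of the linear average, the distance of FDFT1 was 3.74 and no longer the largest.

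SQLE encodes squalene epoxidase, a monooxygenase that opens the way to ring closure. Its distances were 4.89, 3.84, 2.89 and 3.22, a mean of 3.71 ± 0.88 log2 units (SD, n = 4). Its levels, 14.36, 13.77, 13.58 and 13.54, were again highest on replicate 1, and the other arrays lay close together. Each of its 3 probes was above the baseline on all 4 arrays and highest on replicate 1.

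LSS encodes lanosterol synthase, the cyclase that forms the first sterol. It lay closest to the baseline, with distances of 2.29, 0.67, 1.35 and 1.31 and a mean of 1.40 ± 0.67 log2 units (SD, n = 4). Between 52.1% and 68.9% of named genes were lower on the same array, so LSS was near the middle of the array where the other 6 genes were near the top. It was above the baseline on all 4 arrays, and limma called it (adjusted p = 8.5e-05). Its level had the largest SD of the 7 genes, 0.62, and ran from 10.61 on replicate 2 to 12.04 on replicate 3. LSS is the only one of the 7 genes with 2 array targets, that is, sets of 3 probes designed on different transcripts. The target named NM_002340 gave levels of 12.17, 11.41, 11.78 and 11.95, above the baseline on all 4 arrays. The target named NM_001001438 gave 11.34, 9.80, 12.29 and 11.31 and was below the baseline on replicate 2. This target's range of 2.49 log2 units compares with 0.76 for the other target, and its probe 3 passed the baseline on 1 of 4 arrays. With a baseline of mean plus 3 SD the distance of LSS was 0.09, and limma no longer called it. Over all alternatives the adjusted p from limma ran from 2.0e-20 to 1.

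DHCR7 encodes 7-dehydrocholesterol reductase, which carries out the last step to cholesterol in one of the late branches of the pathway. Its distances were 4.23, 3.68, 2.86 and 3.16, a mean of 3.48 ± 0.60 log2 units (SD, n = 4). Its levels, 13.70, 13.62, 13.55 and 13.49, were almost the same on every array. Their SD was 0.09, and 1.60% of named genes had a smaller one. Single probes varied more, with SDs of 0.42, 0.46 and 0.43, and they did not peak on the same array. Beside the median level SD of 0.42 over all named genes, the level of DHCR7 was steady, and its distances were ordered as the baselines in reverse, with replicate 1 highest and replicate 3 lowest.

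**Figure D2:**
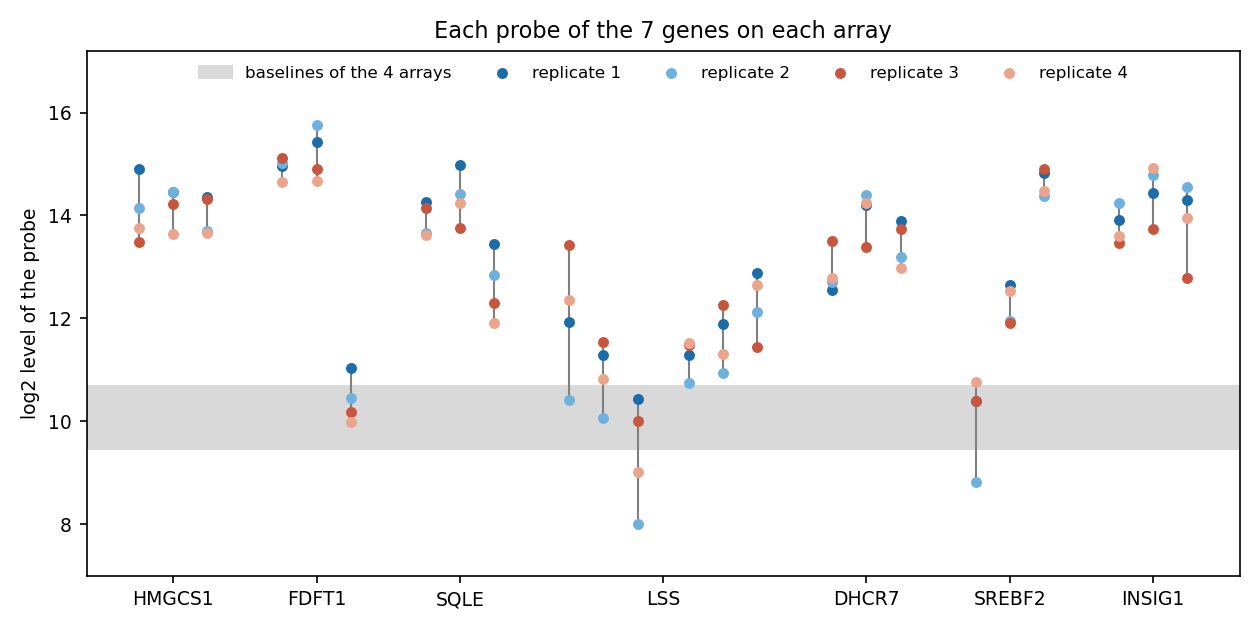
Log2 level of each of the 24 probes of the 7 genes on each array, with 1 vertical line per probe, a wider gap between the 2 targets of LSS, and the range of the 4 baselines as a grey band. A probe of FDFT1, a probe of SREBF2 and a probe of LSS were below the baseline of at least 1 of their own arrays, and the other 21 probes were above their own array's baseline on every array, also where a point falls inside the band.

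SREBF2 encodes SREBP-2, the transcription factor that drives the pathway. Its distances were 4.12, 3.12, 2.85 and 2.98, a mean of 3.27 ± 0.58 log2 units (SD, n = 4). Replicate 1 stood above the other arrays, which lay close together. In levels the order differed, with 13.59, 13.06, 13.54 and 13.30 and the lowest value on replicate 2. The signal rested mainly on 1 probe at 14.64 and another at 12.26, while the remaining probe averaged 10.09 and passed the baseline on 2 of 4 arrays.

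INSIG1 encodes the membrane protein that retains SCAP in the endoplasmic reticulum. Its distances were 4.76, 4.60, 2.69 and 3.95, a mean of 4.00 ± 0.94 log2 units (SD, n = 4), the largest SD of a distance among the 7 genes. Replicate 3 was the low array. Its levels were 14.23, 14.54, 13.38 and 14.27, and all 3 of its probes were lowest on replicate 3. Between 86.3% and 95.2% of named genes were lower on the same array.

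Over all 24 probes of the 7 genes, 21 were above the baseline on all 4 arrays, or 87.5%, against 38.3% of the 57375 probes of named genes. None was below it on every array. In the order of mean distance the genes ran FDFT1, HMGCS1, INSIG1, SQLE, DHCR7, SREBF2 and LSS. The difference of neighbours was taken within each array, where the baseline cancels. FDFT1 was above HMGCS1 by 0.41 ± 0.28 log2 units (SD, n = 4) and on all 4 arrays. Its place depended on how probes were summarized. With the mean of log2 probe values FDFT1 was at 3.74, below HMGCS1 at 4.32, INSIG1 at 4.29 and SQLE at 3.86. With the median of the probes it was at 4.92 and HMGCS1 at 4.15. HMGCS1 and INSIG1 differed by 0.01 ± 0.60 and INSIG1 and SQLE by 0.29 ± 0.53, less than the spread over arrays, with the former gene higher on 2 of 4 arrays in each case. SQLE was above DHCR7, and DHCR7 above SREBF2, on all 4 arrays, but by 0.23 ± 0.29 and 0.22 ± 0.24, again within the spread. SREBF2 was above LSS by 1.86 ± 0.41. Of the 7 genes, LSS alone lay apart, since its highest array, 2.29, was below the lowest array of each other gene.

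The spread over arrays was examined by pair, because the pairs appear to have been normalized apart. The baseline was 0.80 log2 units higher on replicates 3 and 4 than on replicates 1 and 2. Levels on replicates 3 and 4 minus those on replicates 1 and 2 were -0.49 for HMGCS1, -0.49 for FDFT1, -0.50 for SQLE, -0.14 for DHCR7 and -0.56 for INSIG1, and were 0.10 for SREBF2 and 0.65 for LSS. The median of this difference over all named genes was 0.08, and the median of its size was 0.38. A limma test of the pairs called 0 of the 7 genes (adjusted p from 0.65 to 0.94) and 0% of all named genes, of which 1498 had an unadjusted p under 0.05. None of the 7 had an unadjusted p under 0.05. Taken the other way, replicates 2 and 4 minus replicates 1 and 3, the differences ran from -0.78 for LSS to 0.60 for INSIG1, against a median size of 0.35 for all named genes. Replicate 1 gave the highest level for 4 of the 7 genes and for 22.5% of all named genes, and for 11 of the 24 probes, or 45.8%, against 22.6% of all probes of named genes.

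**Figure D3:**
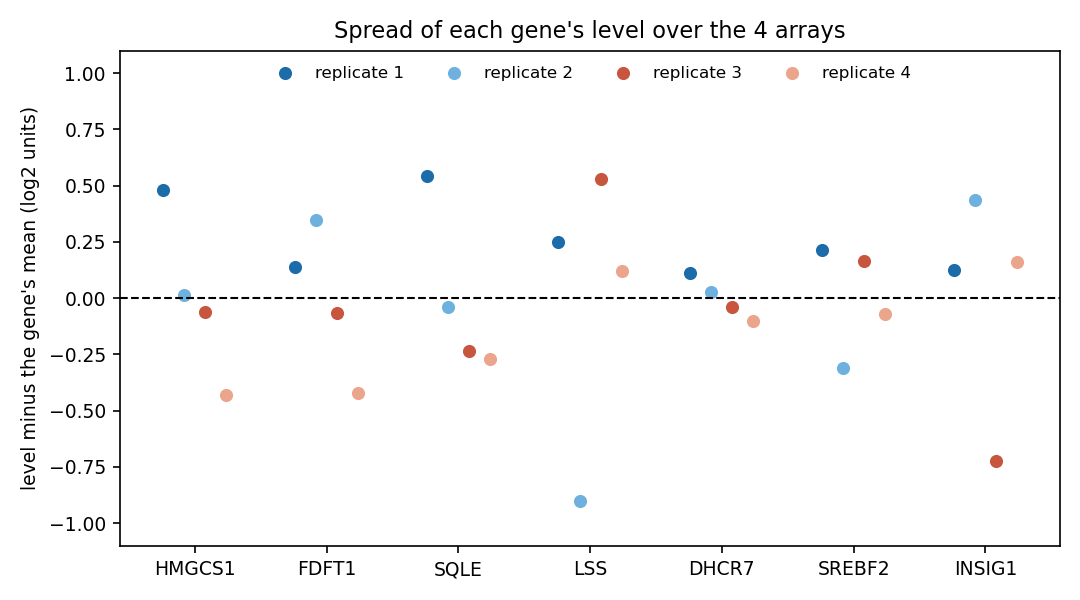
Log2 level of each of the 7 genes on each array minus the gene's own mean over the 4 arrays, with 1 point per array and no baseline taken off. DHCR7 spans 0.22 log2 units and LSS 1.43, and no array is highest for all 7 genes.

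With the median of each array taken off, the mean deviation of the 7 genes from their own means was 0.22, -0.03, -0.11 and -0.07 on replicates 1 to 4. Among 134 other genes of the sterol and marker lists, those nearest to this pattern by root mean square difference over the 4 arrays were UFD1, which helps to extract proteins from the endoplasmic reticulum membrane, at 0.05 log2 units, COL3A1, a collagen, at 0.06, and FNTA, the alpha subunit shared by farnesyl transferase and a geranylgeranyl transferase, at 0.08. The median over the 134 genes was 0.36. COL3A1 lay below the baseline on all 4 arrays, with a mean distance of -3.34, and 4 arrays allow only a loose likeness.

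Other enzymes on the route from acetyl-CoA to cholesterol were detected along with the 5 member enzymes. All 14 of those listed lay above the baseline on all 4 arrays and were called by limma, with a median distance of 3.16 against 0.26 for all named genes. With the members, 19 of 19 listed synthesis enzymes were detected, with a median of 3.48, and LSS had the smallest distance of the 19. IDI2 was listed with the isoprenoid branch and is not among the 19, and at 0.54 ± 0.43 log2 units (SD, n = 4) limma did not call it. EBP, a sterol isomerase, was the highest at 4.56 ± 0.76 log2 units (SD, n = 4). ACAT2, which forms acetoacetyl-CoA, was at 4.30 ± 0.76 and IDI1, the isopentenyl diphosphate isomerase, at 4.25 ± 0.76. The kinases and the decarboxylase of the mevalonate stretch had smaller distances, with MVK at 2.23 ± 0.34, MVD at 2.04 ± 0.65 and PMVK at 1.85 ± 0.65.

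HSD17B7, a reductase of the late steps, was next above LSS at 1.49 ± 0.84 log2 units (SD, n = 4). Several of the enzymes nearest to the baseline lost their limma call under an alternative. With the median of the probes of a target HSD17B7 was at -0.66 and TM7SF2, a sterol reductase, at 0.25 in place of 2.19, and with the mean of log2 probe values HSD17B7 was at 0.37. With a baseline of mean plus 3 SD, PMVK at 0.53, MVD at 0.72 and HSD17B7 at 0.17 were not called. With the mean of log2 probe values PMVK dropped to 0.76 but was still called.

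Members that belong to a family of similar genes could be set beside the other gene of the family, each read against the baseline alone. This was done for SREBF2 and INSIG1. SREBF1, which encodes SREBP-1, gave 0.18, -0.97, -0.76 and -0.95, a mean of -0.62 ± 0.54 log2 units (SD, n = 4), and only replicate 1 passed. With each of the 4 lower baselines tried, SREBF1 was above 0, up to 1.70. INSIG2 gave 1.58, 0.94, -0.20 and -0.19, a mean of 0.53 ± 0.88, and limma did not call it (adjusted p = 0.14), although it was called without replicate 3, at 0.78, on replicates 1 and 2 alone, at 1.26, and with each of the 4 lower baselines, at 1.85 to 2.86. Its distances split by pair, with replicates 1 and 2 above the baseline and replicates 3 and 4 just below. The baseline itself was 0.80 log2 units higher on replicates 3 and 4. In levels, INSIG2 on replicates 3 and 4 minus replicates 1 and 2 was -0.65. The limma test of the pairs did not call this difference (adjusted p = 0.59).

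**Figure D4:**
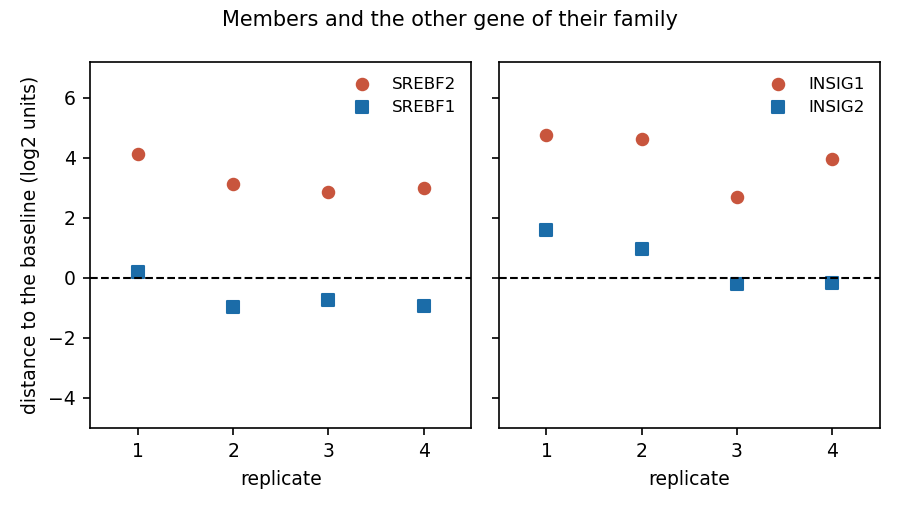
Distance to the baseline in log2 units on each of the 4 arrays for SREBF2 and INSIG1 (circles) and for SREBF1 and INSIG2 (squares), with the baseline as a dashed line. The circles are all above the line, and SREBF1 and INSIG2 lie near it on both sides.

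Other genes of SREBP control were mostly detected. Of 12 genes, SREBF1 and INSIG2 included, 11 were detected, 8 lay above the baseline on all 4 arrays and the same number were called, with a median distance of 2.58. SCAP, the escort of SREBPs, was at 2.99 ± 0.52 log2 units (SD, n = 4). The site-1 protease MBTPS1 was at 3.44 ± 0.44 and the site-2 protease MBTPS2 at 3.47 ± 0.29, so each step from retention to cleavage had a signal on all 4 arrays. RNF145, a ubiquitin ligase of the endoplasmic reticulum, was the most variable at 0.56 ± 2.16, with 3.55, -1.20, 0.74 and -0.85. Limma did not call it on 4 arrays, it was called without replicate 2 at 1.15 and without replicate 4 at 1.03, and without replicate 1 its mean was -0.44. It was also called on replicates 1 and 2 alone, at 1.17, and with each of the 4 lower baselines, at 1.88 to 2.89. Replicates 1 and 2 lay on opposite sides of the baseline, however. The main fit gave every gene the same standard error, 0.351 log2 units, whatever its own spread, so calls of RNF145 are weak evidence of detection.

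Uptake and lysosomal release gave 11 of 11 listed genes detected, all 11 above the baseline on all 4 arrays and called, with a median distance of 2.45. NPC1 and NPC2, which pass cholesterol out of lysosomes, were at 4.11 ± 0.64 and 3.41 ± 1.19 log2 units (SD, n = 4), and the HDL receptor SCARB1 was at 3.42 ± 0.63.

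Genes of cholesterol storage, efflux and oxysterol sensing lay on both sides of the baseline. Of 10 genes 5 were detected and called and the other 5 lay below the baseline on all 4 arrays, with a median distance of -0.06. The efflux transporters ABCA1, at -3.77 ± 0.29 log2 units (SD, n = 4), and ABCG1, at -2.41 ± 0.46, were among the latter. OSBP, an oxysterol-binding transfer protein, was at 3.87 ± 0.91, and SOAT1, which esterifies cholesterol for storage, at 1.27 ± 0.84. The LXR genes NR1H3, at 0.90 ± 0.62, and NR1H2, at 0.81 ± 0.65, were near the baseline, and without replicate 1 limma called neither, at 0.63 and 0.55. NR1H2 was also not called without replicate 3, at 0.72, nor was the esterase NCEH1 without replicate 2, at 0.76 against 1.01 on all arrays. With the median of the probes of a target, NR1H3 at 0.72 and NCEH1 at 0.87 were not called either. With a baseline of mean plus 3 SD, OSBP alone of these 10 genes remained above 0.

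Neighbouring branches of lipid synthesis were detected as well. Of 10 genes of the isoprenoid branch, which makes dolichol, ubiquinone and prenyl groups, 10 were detected and 8 called, with a median distance of 2.16. Those not called were PDSS2 and IDI2, at 0.38 ± 0.84 and 0.54 ± 0.43 log2 units (SD, n = 4). Both were called with each of the 4 lower baselines, PDSS2 at 1.69 to 2.70 and IDI2 at 1.86 to 2.87, and PDSS2 was called on replicates 1 and 2 alone, at 1.05, and IDI2 with the mean of log2 probe values, at 0.82. Of 8 matched genes of fatty acid synthesis, which SREBP-1 drives, 7 were detected and called, with a median of 3.80. ACLY, which supplies cytosolic acetyl-CoA, was at 5.28 ± 0.86, the desaturase SCD at 4.95 ± 0.62 and fatty acid synthase FASN at 4.30 ± 0.38, while the elongase ELOVL6 was at -0.59 ± 1.09.

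Sterol genes of liver, gut and steroid organs were not detected. Of 19 genes 0 had a mean distance above 0, limma called 0 and 0 had an unadjusted p under 0.05, and 18 lay below the baseline on all 4 arrays, with a median of -3.05. CYP7A1, the first enzyme of bile acid synthesis, was at -3.05 ± 0.84 log2 units (SD, n = 4) and the intestinal and hepatic esterifying enzyme SOAT2 at -3.51 ± 0.48. LCAT, a plasma enzyme that esterifies cholesterol on lipoproteins, was the exception on single arrays, at 0.55 on replicate 1 and below the baseline on the others. Without SPATA5 and SPATA13 among the controls, 5 of the 19 had a mean distance above 0, LCAT among them.

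**Figure D5:**
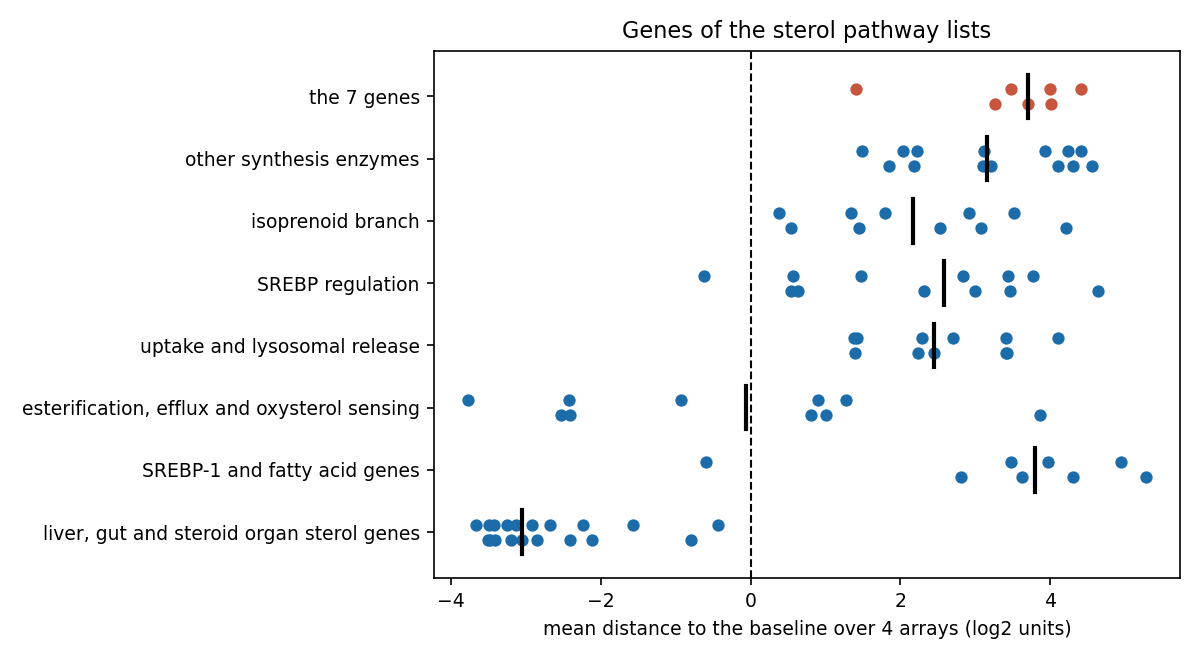
Distance to the baseline in log2 units, averaged over the arrays, with 1 point per gene, for the 7 genes and for the other lists, a black bar at each list's median and the baseline as a dashed line. The 7 genes and the other synthesis enzymes lie wholly to the right of the line, storage and efflux genes lie on both sides, and the genes of liver, gut and steroid organs lie to the left.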

How the data were processed

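The values the authors deposited are on the log2 scale, with 1 for each probe of NimbleGen HG18 arrays (Cy3, 1 colour). Per the labels' processing notes RMA was used, with its settings not given in the sources used here. The 71998 probes formed 24000 targets, of which 19125 matched the RefSeq gene table (GRCh38.p14, used for names only) and stood for 17217 genes. The 3 probes of a target were averaged on the linear scale and the result was taken back to log2, and targets of a gene were averaged. The baseline followed the methods of the study, with 10 of 11 control genes matched (PYY2 was not). Distances were tested against 0 with limma 3.58 in R 4.3 (lmFit and eBayes, one-sided, Benjamini-Hochberg over all named genes, threshold 0.05). The fit gave every gene the same standard error, 0.351 log2 units, and a shift of 1 baseline moves all genes of an array, so the tests are not independent. The smallest p that an exact one-sided sign-flip test can give with 4 arrays is 0.0625, which cannot pass 0.05. The script was tested on simulated data. Only 4 arrays limit the precision, and spot background and saturation were not examined. The members, gene lists and tests were chosen with earlier results of these data known. Named genes are the 7 members, genes of the lists and the 3 genes nearest to the members' pattern. ACACA, on the list of fatty acid genes, was not matched. Alternatives changed the probe summary, the baseline, the control genes, the normalization, the limma prior and the arrays used. Some genes of these pathways are not reported here and were left out of the lists and their counts.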

Additional observations from a re-analysis of the deposited data

Results flagged for a closer look

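None of the 7 genes, their targets or their probes had an array that stood apart by Dixon's test. Of 124 sets of 4 array values examined, the distances of the sterol genes listed and the levels, LSS targets and probes of the 7 genes, 7 did, and chance alone gives about 1 in 20. In the synthesis list MVK had a gap over range of 0.831, with replicate 1 at 2.73 and the others at 2.00 to 2.12, and TM7SF2 had 0.881, with replicate 1 at 3.33 and the others at 1.70 to 1.89. MBTPS1 had 0.875, with replicate 1 at 4.10 and the others at 3.19 to 3.30. ACSS2 and FADS2 of fatty acid synthesis had 0.887 and 0.856, with replicate 1 at 3.64 and 4.23 against 2.46 to 2.59 and 3.14 to 3.29. STAR had 0.932, with replicate 1 at -1.57 and the others at -3.09 to -2.99. CYP8B1 had 0.877, with replicate 2 at -2.60 and the others at -3.07 to -3.01. The 7 flagged sets were all distances, which carry the baseline of each array, and the levels of these genes were not examined here. They therefore do not show that a level stood apart. Replicate 1 also had the lowest baseline, 9.47 log2 units, and the part of that baseline in these values was not tested.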

How the results depend on the processing

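All 7 genes stayed above the baseline under every alternative run, while the share of all named genes above it ran from 39.1% with mean plus 3 SD to 74.0% without SPATA5 and SPATA13. The distance of LSS ran from 0.09 to 3.73 and that of FDFT1 from 3.10 to 6.75. The limma test called 6 of the 7 with mean plus 3 SD, where LSS was lost, and 7 under each other alternative, and the pair contrast called 0 under each alternative that could move it. Among list counts, storage and efflux genes above the baseline dropped from 5 to 1 with mean plus 3 SD. Sterol genes of liver, gut and steroid organs above it rose from 0 to 2 with mean plus 1 SD, 5 without SPATA5 and SPATA13, 3 with olfactory receptor genes or with the median and scaled MAD, and 1 on replicates 1 and 2 alone. The other list counts stayed within 1.5 times. Genes near the baseline changed sides with its definition. With mean plus 3 SD, SOAT1 was at -0.047, NR1H2 at -0.51, NR1H3 at -0.42 and NCEH1 at -0.31. With mean plus 1 SD, SREBF1 was at 0.69, ELOVL6 at 0.72 and LCAT at 0.89. Without SPATA5 and SPATA13, SREBF1 was at 1.70, ELOVL6 at 1.73 and LCAT at 1.89. With olfactory receptor genes as controls, SREBF1 was at 1.46, ELOVL6 at 1.49 and LCAT at 1.65. With the median and scaled MAD of the controls, SREBF1 was at 1.08, ELOVL6 at 1.11 and LCAT at 1.27. With the median of the probes, HSD17B7 was at -0.66. A baseline moves every gene of an array by the same amount, so these changes follow from its construction. For the change with the median of the probes the cause was not tested.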
